A study of Homo sapiens with 12 samples.

Results

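The comparison described here is that of Viperin overexpression (OE) with empty vector in the absence of insulin, and it covers 6 of the 12 libraries of the experiment. The 6 were chosen by their labels alone, 3 of pCAG Viperin with vehicle (Viperin) and 3 of pCAG empty vector with vehicle (Control). 12Z cells, an immortalized human endometriotic epithelial line, were transfected with FuGene HD, the medium was changed after 4 h, serum was withdrawn for 4 h on the next day, and mRNA was sequenced 24 h after vehicle was added. The other 6 libraries had the same plasmids and 100 nM insulin in place of vehicle (Insulin and Viperin + Insulin). The methods give 3 independent experiments per condition. The treatment protocol in the labels names a pBabe empty vector while the treatment label of every Control library and the methods name pCAG. If it was pBabe, the plasmid backbone and the Viperin insert cannot be told apart. The methods describe an siRNA transfection a day before the plasmid, and the sources used here do not say whether these cells received a non-targeting siRNA. All groups are 1 cell line, and no source used here gives the share of cells that took up plasmid. RNA came from whole cultures, in which fewer cells of a type and less RNA per cell cannot be told apart.

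Viperin, the product of RSAD2, is an interferon-induced radical SAM enzyme that turns CTP into ddhCTP, a nucleotide that ends viral RNA chains. It sits on the cytosolic face of the endoplasmic reticulum and on lipid droplets, needs an iron-sulfur cluster, and binds enzymes of sterol synthesis and of fatty acid oxidation as well as signalling proteins such as IRAK1. Genes for these partners, for pyrimidine nucleotides and for the interferon response were therefore examined together with the genes that moved.

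Control libraries held 25979022 to 34226757 assigned read pairs and Viperin libraries 27857401 to 40305521. Values are CPM, counts scaled to library sizes corrected with TMM factors, and changes are log2 fold changes of Viperin over Control with their standard errors (SE) from edgeR's quasi-likelihood test, whose p-values were adjusted over 23041 genes. A gene was called where its adjusted p was below 0.001, and a member of a gene list below 0.05. Of all genes tested, 1.25% were higher and 1.04% lower at 0.05 (2.85% and 2.36% of those at 10 CPM or more). Control library 1 and Viperin library 3 had the largest shares of multimapping reads, 13.9% and 12.1%, and the fewest assigned pairs of their groups. Mitochondrially encoded genes took 5.59% to 6.64% of the counts in Control and 4.82% to 5.34% in Viperin libraries. The epithelial keratins KRT8 and KRT18 stood at 1281.8 and 812 CPM in Control cells, while the epithelial genes EPCAM and CDH1 stood at 0.29 and 0.941 CPM and GRHL2 had no count. Stromal genes such as VIM and COL3A1 stood at 1622.8 and 1428.2 CPM. The epithelial genes named here were thus not all high. The epithelial cell type is the one given for the 12Z line, and it was not tested with these few genes.

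RSAD2 measured 3.48, 2.28 and 2.99 CPM in the 3 Control libraries and 591, 665 and 384 CPM in the 3 Viperin libraries. The mean was 188-fold higher with the plasmid and the groups were far apart (p = 0.1 by an exact permutation test, two-sided, which cannot go lower with 3 libraries against 3). The log2 fold change was 7.54 (SE 0.33, adjusted p = 2.0e-05, edgeR), and it missed 0.001 in a fit of these 6 libraries alone, at 7.53 (adjusted p = 0.00692, edgeR). Counts on the strand opposite to the genes gave 15 calls of 16076 (0.0933%), RSAD2 among them. CMPK2, a nucleotide kinase encoded next to RSAD2 and induced with it by interferon, had 28, 18 and 16 counts in Control and 28, 22 and 21 in Viperin libraries, which overlapped.

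Apart from RSAD2, the changes with Viperin OE were small. In all, 70 of 23041 genes were called (0.304%), 43 of them higher (0.187%) and 27 lower (0.117%). Of the 9389 genes at 10 CPM or more, 67 were called (0.714%), 42 higher (0.447%) and 25 lower (0.266%). The log2 fold change was under 0.5 in size for 65 of the 70, with a median size of 0.25. In each of the 70 the Viperin libraries lay all on one side of the Control libraries, as they did for 15.8% of all genes tested. Among those at 10 CPM or more the share was 22.2%. The calls included 67 protein-coding genes, the pseudogenes MTATP6P1 and EEF1A1P5, which share sequence with MT-ATP6 and EEF1A1 so that their counts are uncertain, and the small RNA BCYRN1. The last gene inside the threshold had an adjusted p of 9.7e-04 and the first outside it one of 0.00101 (edgeR). The number of calls depended on single libraries. Leaving out Control library 1 gave 146 higher and 107 lower, Control library 2 gave 13 and 10, and Control library 3 gave 20 higher. Leaving out Viperin library 1 gave 28 and 17, library 2 gave 9 and 7, and library 3 gave 13 and 8. The number lower was also 16 without Insulin library 3 and 14 without Viperin + Insulin library 1. All 70 kept their direction in each of those fits, 67 kept an adjusted p under 0.05 (edgeR) in each, and 11 kept one under 0.001.

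The 11 genes were GPNMB, COL4A5, SUN1, ADAM12, FBN1, PSAP and RSAD2 among those that rose, and NRG1, MTATP6P1, MAP1B and QSER1 among those that fell. GPNMB, a transmembrane glycoprotein of melanosomes and lysosomes, measured 30.9, 30 and 28.4 CPM in Control and 39.6, 43.3 and 41.8 CPM in Viperin libraries. This was the called gene with the smallest p, and every Viperin library exceeded every Control library by more than the range within either group (log2 fold change 0.48, SE 0.06, adjusted p = 1.4e-08, edgeR). SUN1, which spans the inner nuclear membrane and joins lamins to the cytoskeleton as part of the LINC complex, measured 130, 120 and 124 CPM in Control and 145, 149 and 161 CPM in Viperin libraries (log2 fold change 0.28, SE 0.04, adjusted p = 2.6e-06, edgeR). SUN2, its relative, also rose, from 83.5, 74.4 and 78.6 to 87.9, 92.5 and 92.4 CPM (log2 fold change 0.21, SE 0.04, adjusted p = 0.00189, edgeR). These were the 2 of 21 nuclear envelope genes (9.52%) that passed 0.05, where 1.25% of all genes tested were higher. Among genes at 10 CPM or more, as all 21 were, the share was 2.85%. The median of that list was 0.04. ADAM12, a membrane-bound metalloprotease, rose from 98.2, 88.2 and 86.7 to 111, 112 and 110 CPM (log2 fold change 0.29, SE 0.04, adjusted p = 4.3e-06, edgeR).

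NRG1, a growth factor that binds ERBB3 and ERBB4, fell from 51.4, 59.9 and 55 CPM in Control to 43.1, 39.3 and 41.9 CPM in Viperin libraries (log2 fold change -0.42, SE 0.05, adjusted p = 2.6e-08, edgeR). It was the 1 of 14 measured ERBB receptors and ligands that passed 0.05, and that list had a median of -0.01. That is 7.14% of the list, where 1.04% of all genes tested were lower (2.36% of those at 10 CPM or more). MAP1B, a microtubule-associated protein, fell from 917, 969 and 1012.1 to 820, 785 and 811 CPM (log2 fold change -0.26, SE 0.04, adjusted p = 1.9e-06, edgeR). The related MAP1A fell from 95.8, 113 and 120 to 88.5, 85.3 and 89.9 CPM (log2 fold change -0.32, SE 0.05, adjusted p = 9.5e-04, edgeR), and the cytoskeletal linker DST fell from 703, 671 and 664 to 602, 495 and 528 CPM (log2 fold change -0.33, SE 0.05, adjusted p = 7.8e-04, edgeR). The groups did not overlap for any of the 3, as for 15.8% of all genes tested (22.2% of those at 10 CPM or more). MAP1B, MAP1A and DST were the 3 of 30 (10.0%) microtubule-associated proteins and tubulins that passed 0.05 by edgeR. Among all genes tested, 1.04% were lower (2.36% of those at 10 CPM or more). DESeq2 and limma-voom each called 5 of that list lower. By edgeR 5 passed without Control library 1, and DST missed it without Control library 3 (adjusted p = 0.0641, edgeR). QSER1, a DNA-binding protein that counters DNA methylation, fell from 156, 155 and 151 to 137, 123 and 121 CPM (log2 fold change -0.28, SE 0.04, adjusted p = 6.0e-06, edgeR). MTATP6P1 fell from 296, 305 and 306 to 256, 249 and 226 CPM (log2 fold change -0.31, SE 0.04, adjusted p = 4.4e-08, edgeR), in the direction of the mitochondrially encoded genes.

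The 24 leading genes are the 12 that rose and 12 that fell with the smallest p among called genes without overlap. Their lack of overlap is therefore part of the choice and no added support. The other 13 of the 24 kept an adjusted p under 0.05 without any 1 library, the largest being 0.0155 (edgeR). Those that rose were C1S, CCDC80, OLFML3, PXDN and LGMN, with log2 fold changes of 0.23 to 0.41. C1S, a complement protease, measured 37.3, 33.6 and 34.5 CPM in Control and 43.8, 42.1 and 47.6 CPM in Viperin libraries (log2 fold change 0.34, SE 0.05, adjusted p = 2.6e-05, edgeR). The secreted glycoprotein OLFML3 measured 20.2, 19.4 and 23.8 CPM in Control and 27.1, 28.5 and 28.8 CPM in Viperin libraries (log2 fold change 0.41, SE 0.07, adjusted p = 1.0e-04, edgeR). PXDN, a peroxidase of the matrix, measured 296, 254 and 282 CPM in Control and 323, 320 and 334 CPM in Viperin libraries (log2 fold change 0.23, SE 0.04, adjusted p = 1.1e-04, edgeR). For none of these 3 did the groups overlap. Those that fell were RPL11, the proteasome subunits SEM1 and PSMC1, the membrane protein MAL2, the mitochondrial ribosomal protein MRPS6, IFIT2, VEPH1 and HBB. MAL2 fell from 226, 230 and 224 to 207, 195 and 182 CPM (log2 fold change -0.22, SE 0.04, adjusted p = 2.2e-04, edgeR), and VEPH1 from 9.08, 12.4 and 11.2 to 7.08, 7.97 and 7.68 CPM (log2 fold change -0.53, SE 0.10, adjusted p = 2.7e-04, edgeR), again without overlap. The plot of the leading genes shows each library.

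**Figure D1:**
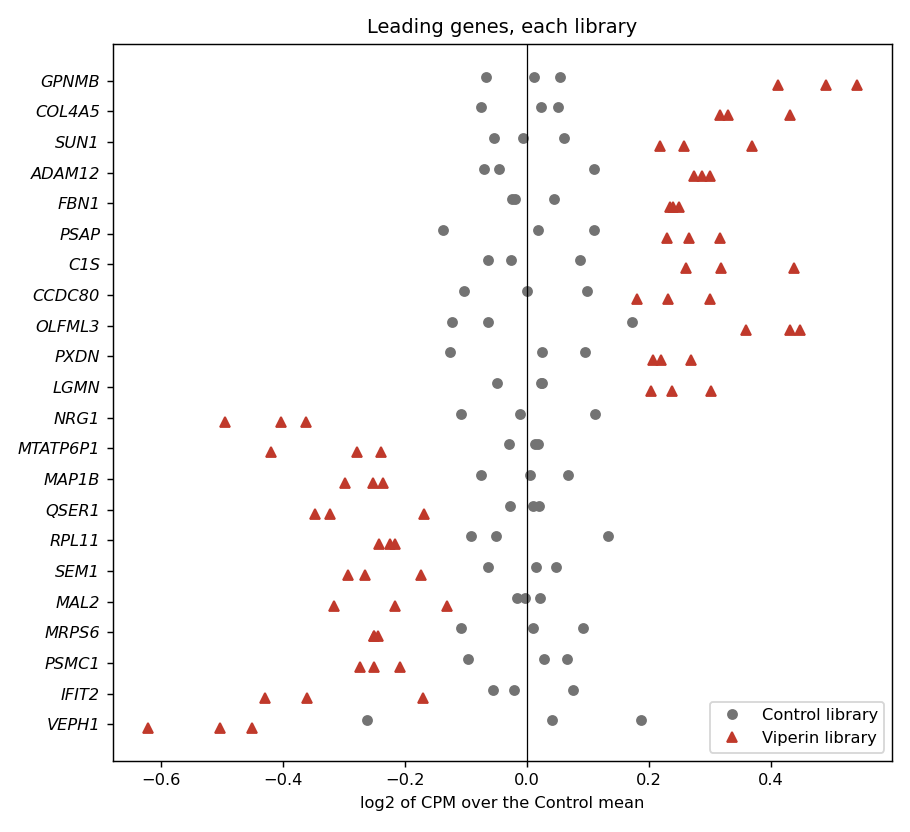
CPM of 22 leading genes in each library as log2 of the ratio to the Control mean, with grey circles for the 3 Control and red triangles for the 3 Viperin libraries. RSAD2 and HBB are left out for scale. No gene shows an overlap between red and grey, which was a condition of the choice. Fitted log2 fold changes run up to 0.48 for GPNMB and down to -0.53 for VEPH1.

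Of genes of the basement membrane, the sheet of type IV collagen and laminin under epithelia, 3 of 6 type IV collagens and 5 of 14 laminins and partners rose. Type IV collagen chains are encoded in head-to-head gene pairs, in which 2 genes are read in opposite directions from 1 short stretch of DNA. The starts of COL4A5 and COL4A6 lie 380 bases apart on chromosome X and those of COL4A1 and COL4A2 127 bases apart on chromosome 13. The sequences below are the stretches that the 250 bases upstream of both starts share, shown because they lie between the 2 starts of a pair. Promoter activity of these bases was not tested. They are from RefSeq on GRCh38.p14, on the + strand, from chrX:108439588-108439708 and chr13:110307158-110307283, with no base in capitals.
COL4A5 and COL4A6: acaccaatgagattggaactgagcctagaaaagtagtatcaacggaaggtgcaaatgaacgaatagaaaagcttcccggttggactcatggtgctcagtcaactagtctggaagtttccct
COL4A1 and COL4A2: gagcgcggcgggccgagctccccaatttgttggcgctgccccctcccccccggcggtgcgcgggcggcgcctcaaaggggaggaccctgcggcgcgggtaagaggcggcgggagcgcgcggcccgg

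COL4A5 measured 89.9, 82.3 and 88.1 CPM in Control and 108, 109 and 117 CPM in Viperin libraries (log2 fold change 0.36, SE 0.04, adjusted p = 1.4e-08, edgeR). COL4A6, on the other side of the shared stretch, measured 39, 37.3 and 41.9 CPM in Control and 45.1, 42.7 and 48.4 CPM in Viperin libraries (log2 fold change 0.20, SE 0.05, adjusted p = 0.0247, edgeR). Both genes of the X-linked pair were higher in every Viperin library, although COL4A6 missed 0.05 without Control library 2, Viperin library 1 or Viperin library 3 (adjusted p up to 0.185, edgeR). COL4A1 rose from 132, 109 and 123 to 150, 142 and 144 CPM (log2 fold change 0.26, SE 0.05, adjusted p = 0.00105, edgeR). COL4A2 measured 322, 267 and 316 CPM in Control and 325, 318 and 330 CPM in Viperin libraries, which overlapped (log2 fold change 0.10, SE 0.05, adjusted p = 0.349, edgeR). Whether the pair differed in response was not tested. COL4A3 and COL4A4 were low, at 0.426 and 3.45 CPM in Control cells, and were not called. In sum 3 of 6 type IV collagens passed 0.05 upward and 0 downward, where 1.25% of all genes tested passed upward and 1.04% downward (2.85% and 2.36% of those at 10 CPM or more), and their median log2 fold change was 0.21 against 0.000 over all genes tested.

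Of 14 laminins and partners, 5 rose (35.7%), where 1.25% of all genes tested did (2.85% at 10 CPM or more). None of the 14 fell and 9 did not pass, with a median of 0.17. LAMB1, a laminin beta chain, rose from 264, 246 and 245 to 286, 284 and 291 CPM (log2 fold change 0.19, SE 0.04, adjusted p = 5.2e-04, edgeR). LAMA4 measured 29.3, 30.2 and 29.3 CPM in Control and 34.1, 33.9 and 35.6 CPM in Viperin libraries (log2 fold change 0.22, adjusted p = 0.0219, edgeR). NID1, which links laminin to collagen, LAMC1 and LAMA3 were the others, with log2 fold changes of 0.21, 0.14 and 0.25. NID1 overlapped between groups, and each of the 4 besides LAMB1 missed 0.05 without at least 1 library. Leaving out Control library 1 gave 10 that rose, Control library 2 or Viperin library 1 gave 2, and Control library 3 or Viperin library 3 gave 1.

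**Figure D2:**
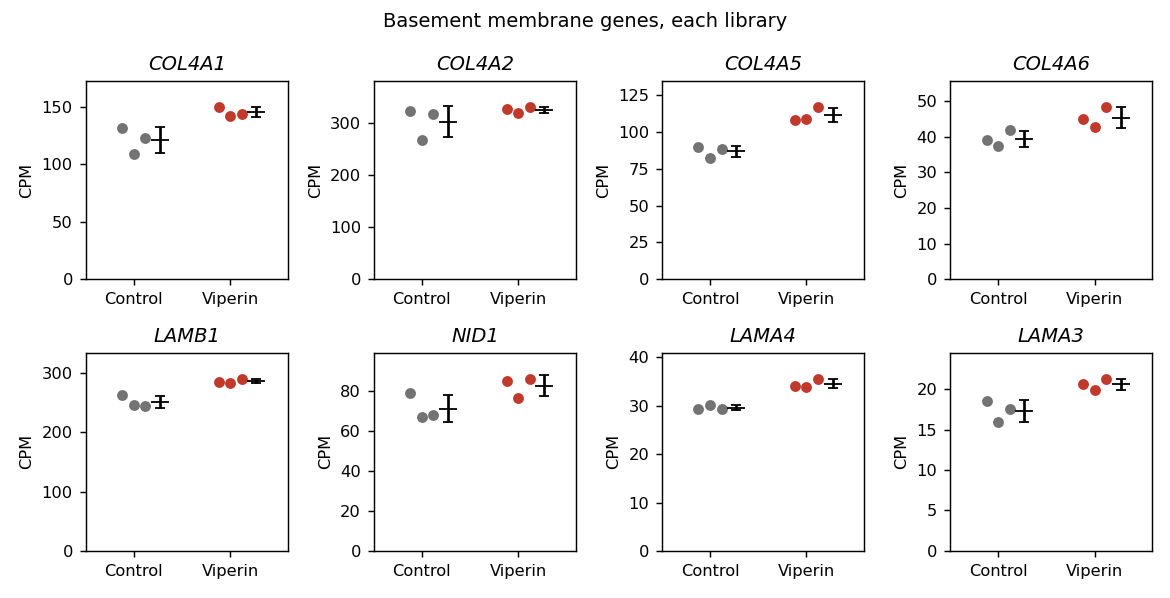
CPM of 8 basement membrane genes in Control (grey) and Viperin (red) libraries, with the mean and SD of 3 libraries beside the points. Axes start at 0. COL4A5 moved from a mean of 86.8 to 111 CPM, while the COL4A2 libraries overlapped.

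Of 44 matrix glycoproteins and proteoglycans, 8 rose (18.2%), none fell and 36 did not pass, with a median log2 fold change of 0.18. At an unadjusted p under 0.05, 19 were higher and 3 lower (edgeR), and DESeq2 and limma-voom each called 1 lower. Among all genes tested, 1.25% rose and 1.04% fell at 0.05 (2.85% and 2.36% of those at 10 CPM or more). FBN1, the fibrillin of elastic microfibrils, rose from 282, 270 and 269 to 322, 323 and 325 CPM (log2 fold change 0.24, SE 0.04, adjusted p = 1.2e-05, edgeR). CCDC80 rose from 703, 654 and 752 to 825, 865 and 796 CPM, and SPARC, a collagen-binding glycoprotein, from 1665.5, 1419.9 and 1472.8 to 1876.7, 1781.1 and 1741.4 CPM, each with a log2 fold change of 0.24 (adjusted p = 9.4e-05 and 4.6e-04, edgeR). MATN2, FBLN2 and FBLN1, adaptor proteins of the matrix, rose with log2 fold changes of 0.34, 0.39 and 0.29. SPARC and FBLN2 missed 0.05 without Control library 3 (adjusted p = 0.0583 and 0.0833, edgeR) and FBLN1 without Control library 2 (adjusted p = 0.0672, edgeR). The summed level of the list was 7156.0 to 8360.9 CPM in Control and 8624.6 to 9024.9 CPM in Viperin libraries. The number that rose was 19 without Control library 1, 5 without Control library 3, and 19, with 1 lower, without Control library 1 and Viperin library 3 together.

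Of 23 collagens outside type IV, 3 rose and none fell. COL3A1 rose from 1552.0, 1299.7 and 1432.8 to 1764.9, 1708.6 and 1696.2 CPM (log2 fold change 0.27, SE 0.04, adjusted p = 2.4e-04, edgeR) and COL1A2 from 503, 403 and 432 to 599, 557 and 567 CPM (log2 fold change 0.37, SE 0.07, adjusted p = 0.0304, edgeR). Both missed 0.05 without Control library 3 (adjusted p = 0.0719 and 0.165, edgeR), and COL1A2 also without any 1 Viperin library. COL14A1, the third, stood at 0.703 CPM in Control and 1.74 CPM in Viperin cells. The number that rose was 7 without Control library 1 and 5 without Control library 2. COL3A1 and COL1A2 are also the 2 of 18 stromal markers that rose, a list with a median of 0.10 and a summed level of 5871.6 to 6432.1 CPM in Control and 6768.3 to 6966.2 CPM in Viperin libraries. Leaving out Control library 1, 2 or 3 gave 7, 4 and 0 of them, and leaving out Viperin library 1 or 3 gave 1. None of 16 measured epithelial markers passed by edgeR, DESeq2 or limma-voom, 1 was lower at an unadjusted p under 0.05 (edgeR), and their summed level was 2593.8 to 2664.5 CPM in Control and 2456.3 to 2547.0 CPM in Viperin libraries. The part of cell makeup in the matrix result was not tested.

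Some enzymes that build and cut the matrix rose. Of 23 genes for collagen processing, 5 rose (21.7%) and none fell, where 1.25% of all genes tested rose (2.85% at 10 CPM or more). Among the 5 was ADAMTS2, which trims procollagen and rose from 13.3, 11.7 and 11.8 to 16.2, 15.5 and 17.7 CPM (log2 fold change 0.42, SE 0.08, adjusted p = 4.7e-04, edgeR). Leaving out Control library 1 gave 10 that rose, Viperin library 3 gave 2, and any 1 of the other 4 libraries gave 3. Of 39 matrix proteases and inhibitors, 5 rose by edgeR (12.8%, beside the same shares of all genes). They were ADAM12, MMP2, ADAMTS12, ADAM9 and ADAM17, and 8 rose without Control library 1. None of that list fell by edgeR, while 3 were lower at an unadjusted p under 0.05, DESeq2 called 1 lower and limma-voom 0, and with 20 positive and 19 negative values the median was 0.02. MMP2, gelatinase A, rose from 17.5, 15.6 and 17.3 to 20.7, 23 and 23.5 CPM (log2 fold change 0.41, SE 0.07, adjusted p = 2.2e-04, edgeR). ITGB1, the beta chain of many matrix receptors, rose from 703, 684 and 676 to 781, 783 and 780 CPM (log2 fold change 0.18, SE 0.03, adjusted p = 3.4e-04, edgeR). Of 37 integrin and focal adhesion genes 2 rose (5.41%, beside the same shares of all genes), with a median of 0.04. That number was 7 without Control library 1. It was 1 without Control library 2, Viperin library 1 or 3, Insulin library 3 or Viperin + Insulin library 2. CTNNB1, beta-catenin, rose from 330, 319 and 308 to 352, 362 and 368 CPM (log2 fold change 0.18, SE 0.04, adjusted p = 0.00118, edgeR). The APP gene, which encodes the amyloid precursor protein, rose from 855, 805 and 805 to 909, 910 and 951 CPM (log2 fold change 0.17, SE 0.03, adjusted p = 0.0019, edgeR). Of 16 measured genes of the APP family and its secretases 3 rose (18.8%), with a median of 0.08, and 1 without Control library 3 or Viperin library 2.

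Some lysosomal genes rose, and none fell by edgeR, DESeq2 or limma-voom, with 2 lower at an unadjusted p under 0.05 (edgeR). Lysosomes digest material from endocytosis and autophagy, and many of their genes are controlled by the TFEB and MITF family of factors, which bind E-box motifs known as CLEAR and M-box. Of 60 lysosomal genes, 15 rose (25.0%) and 45 did not pass, where 1.25% of all genes tested rose (2.85% at 10 CPM or more). The median log2 fold change of the 60 was 0.08 against -0.001 over the 9389 genes at 10 CPM or more. The summed level was 7010.4 to 7337.1 CPM in Control and 7594.7 to 7781.2 CPM in Viperin libraries, which did not overlap. PSAP, the precursor of the saposins that help to break down sphingolipids, measured 862, 808 and 726 CPM in Control and 936, 960 and 994 CPM in Viperin libraries (log2 fold change 0.27, SE 0.04, adjusted p = 1.7e-05, edgeR). LGMN, an asparaginyl protease, rose from 81.6, 81.7 and 77.6 to 92.4, 94.7 and 99 CPM (log2 fold change 0.25, SE 0.04, adjusted p = 1.2e-04, edgeR). ATP6AP2, an accessory protein of the proton pump, rose from 153, 147 and 134 to 162, 176 and 169 CPM (log2 fold change 0.22, SE 0.04, adjusted p = 2.4e-04, edgeR), and the cysteine protease CTSF rose from 30, 27.4 and 28.4 to 32.6, 37.5 and 37.3 CPM (log2 fold change 0.32, SE 0.06, adjusted p = 9.3e-04, edgeR).

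Among the other 10 were the membrane receptors SCARB2 and IGF2R, the glycosidases GLB1, HEXA and MANBA, the sulfatase ARSB, the peptidase TPP1 and the growth factor precursor GRN, with log2 fold changes of 0.13 to 0.24. Each of these 10 missed 0.05 without at least 1 library, and the number of lysosomal genes that rose was 9 without Control library 3 or Viperin library 1 and 8 without Viperin library 3. FLCN, a regulator of TFEB family factors and of mTORC1, rose from 35.7, 31.2 and 29.9 to 39.7, 39.9 and 40.9 CPM (log2 fold change 0.32, SE 0.06, adjusted p = 2.2e-04, edgeR). Of 34 genes of autophagy and the TFEB family, 1 rose, where 2.85% of genes at 10 CPM or more did. It was ULK2, with an adjusted p of 0.0278 (edgeR), which did not pass without any 1 of Control library 2 or 3 or the 3 Viperin libraries, while 2 rose without Control library 1. The list had a median of -0.01.

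The 250 bases upstream of a RefSeq start of GPNMB are shown because this gene led the list and holds an M-box, TCACATGA, in capitals. The sequence is from RefSeq on GRCh38.p14, chr7:23246525-23246774, + strand. It precedes a RefSeq start that lies inside the gene model used for the counts, which runs on chromosome 7 from 23235967 to 23275108.
GPNMB: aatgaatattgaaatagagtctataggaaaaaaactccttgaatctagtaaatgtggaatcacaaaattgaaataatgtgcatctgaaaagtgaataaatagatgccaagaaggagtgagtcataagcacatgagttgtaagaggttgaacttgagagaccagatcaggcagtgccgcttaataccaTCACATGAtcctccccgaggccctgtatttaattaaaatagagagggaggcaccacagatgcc

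Such upstream sequences were given for 39 of the 60 lysosomal genes. TCACATGA, searched on both strands, was found for 4 of the 39 (10.3%), namely GPNMB, GRN, TPP1 and CD63, and in 0.851% of 35116 promoters of the same length. GPNMB, GRN and TPP1 were among the 9 with a sequence that rose. The CLEAR motif TCACGTGA, which reads the same on both strands, was found for 6 of the 39 (15.4%), of which IGF2R rose, and in 0.854% of all promoters. A gene with several promoters in the table counts once if any of them holds the motif, while the shares of all promoters count each. A match is a sequence and not a site of binding.

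**Figure D3:**
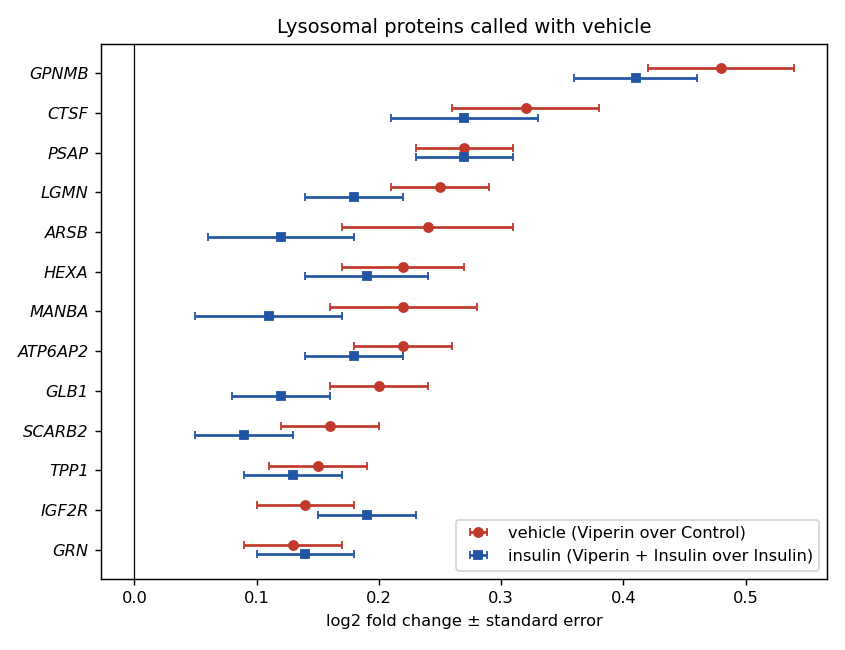
Log2 fold changes with standard errors of 13 of the 15 lysosomal genes called at 0.05 with vehicle, as red circles for Viperin over Control and blue squares for Viperin + Insulin over Insulin. The red values chose the genes and run from 0.13 to 0.48, and the blue values from other libraries run from 0.09 to 0.41.

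A minority of the genes for making, folding and degrading proteins fell. Of 31 genes of the proteasome 19S cap and its assembly, 9 fell (29.0%), none rose and 22 did not pass. The list median was -0.11. None rose by DESeq2 or limma-voom, and at an unadjusted p under 0.05 20 were lower and 0 higher (edgeR). Among all genes tested, 1.04% fell at 0.05 (2.36% of those at 10 CPM or more). PSMC1, an ATPase of the cap, fell from 88.4, 96.3 and 98.9 to 79.4, 81.8 and 78.2 CPM (log2 fold change -0.25, SE 0.04, adjusted p = 2.4e-04, edgeR). SEM1 fell from 123, 130 and 133 to 105, 114 and 107 CPM (log2 fold change -0.24, SE 0.04, adjusted p = 2.1e-04, edgeR), and the ubiquitin receptor ADRM1 from 154, 161 and 178 to 143, 139 and 147 CPM (log2 fold change -0.20, SE 0.04, adjusted p = 9.7e-04, edgeR). PSMD11 fell from 270, 284 and 283 to 245, 250 and 250 CPM (log2 fold change -0.17, adjusted p = 0.00269, edgeR). The summed level of the list was 5111.2 to 5376.2 CPM in Control and 4830.4 to 4892.9 CPM in Viperin libraries. The number that fell was 14 without Control library 1 and 4 without Control library 2, Viperin library 1 or Viperin library 2. Of 17 subunits of the proteasome core, 4 fell (23.5%, beside the same shares of all genes), with log2 fold changes from -0.15 to -0.13. The number of core subunits that fell was 2 without Control library 1, Insulin library 3 or Viperin + Insulin library 1. It was 0 without Control library 2, Viperin library 1 or Viperin library 2.

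Of 47 proteins of the large ribosomal subunit, 11 fell (23.4%), 36 did not pass and none rose, with a median of -0.09. Among all genes tested, 1.04% fell (2.36% of those at 10 CPM or more). RPL11, which also binds MDM2, fell from 561, 545 and 637 to 500, 497 and 491 CPM (log2 fold change -0.23, SE 0.04, adjusted p = 1.4e-04, edgeR). RPL24 fell from 380, 379 and 406 to 343, 343 and 336 CPM (log2 fold change -0.19, SE 0.04, adjusted p = 6.0e-04, edgeR). Of 31 proteins of the small subunit, RPS24 (-0.16), RPS27 (-0.18) and RPS2 (-0.14) fell, which is 9.68% of them. Ribosomal protein genes have many processed pseudogenes, and multimapping reads were not counted, so these values are uncertain. The large-subunit number was 17 without Control library 3, 7 without Control library 2 or Insulin library 3, 6 without Viperin library 3 and 5 without Viperin library 1 or 2, and the small-subunit number was 11 without Control library 3 and 5 without Control library 1.

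Of 35 cytosolic chaperones and heat shock proteins, 6 fell (17.1%) and 29 did not pass, with a median of -0.08. Among all genes tested, 1.04% fell (2.36% of those at 10 CPM or more). HSP90AA1, the inducible HSP90, fell from 2744.5, 2993.0 and 2756.2 to 2566.5, 2547.9 and 2456.0 CPM (log2 fold change -0.17, SE 0.04, adjusted p = 0.00257, edgeR). Its kinase cochaperone CDC37 fell from 167, 173 and 205 to 155, 156 and 156 CPM (log2 fold change -0.23, SE 0.05, adjusted p = 0.00431, edgeR). DNAJA1, CCT7, HSPD1 and STIP1 were the other 4, and 3 fell without Control library 2 or Viperin library 2. HSP90AA1 missed 0.05 without Control library 2 (adjusted p = 0.0764, edgeR) and CDC37 without Control library 3 (adjusted p = 0.0553, edgeR). In glycolysis, the log2 fold changes of TPI1, HK1 and GAPDH, which fell, were -0.18, -0.17 and -0.12. The phosphofructokinase PFKM rose by 0.21. In that list of 33 genes, 9.09% were lower and 3.03% higher, beside 1.04% and 1.25% of all genes tested. At 10 CPM or more those shares of all genes were 2.36% and 2.85%. The list median was -0.06, with 23 negative and 10 positive values. Without any 1 library PFKM missed 0.001 but stayed under 0.05 (adjusted p up to 0.0147, edgeR). GAPDH missed 0.05 without 6 of the 12 libraries (adjusted p up to 0.153, edgeR).

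All 15 mitochondrially encoded genes had a negative log2 fold change, with a median of -0.26, and 3 passed 0.05. None of the 3 calls was kept after correction for GC content and length, limma-voom called 1 gene of this list and DESeq2 called 9. MT-ND4L, a subunit of complex I, measured 576, 622 and 627 CPM in Control and 496, 498 and 432 CPM in Viperin libraries (log2 fold change -0.35, SE 0.06, adjusted p = 0.0124, edgeR). MT-ND4 had a log2 fold change of -0.36 and MT-CO2 one of -0.21. The groups did not overlap for 12 of the 15, where 15.8% of all genes did not (22.2% at 10 CPM or more). The number that fell was 6 without Control library 1 and 1 without Viperin library 2, Viperin library 3 or Viperin + Insulin library 2. These genes share 1 transcript per strand of the mitochondrial genome and are not independent of each other. With them and RSAD2 left out of the library sizes, 48 genes were called higher and 27 lower. Of 77 nuclear genes of the respiratory chain, 4 fell (5.19%), where 1.04% of all genes tested did (2.36% at 10 CPM or more). The median of the 77 was -0.02. Leaving out Viperin library 1 gave 0 that fell, and Control library 2 or Viperin library 3 gave 1. Insulin library 3 or Viperin + Insulin library 1 left out gave 2.

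**Figure D4:**
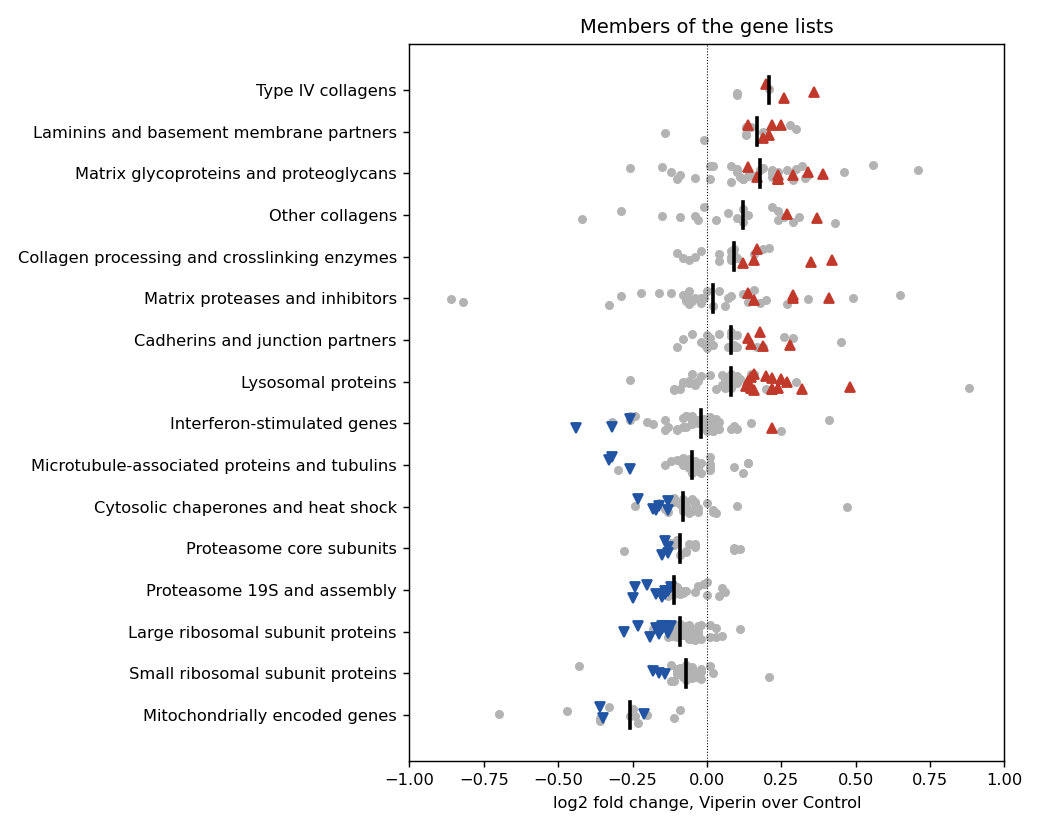
Log2 fold changes of the measured members of 16 gene lists, with black bars at the list medians, red upward triangles for members called higher at 0.05, blue downward triangles for members called lower and grey circles for the rest. The vertical positions within a list are random, and 1 member beyond the axis (COL14A1, 1.26) is not drawn. Matrix and lysosomal lists hold red points and proteasome, ribosomal and chaperone lists blue ones.

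Transcript length moved with these results. The median length of the longest transcript was 4859 bases for the 288 genes higher at 0.05, 2800 for the 240 lower and 4163 for the 9389 genes at 10 CPM or more, while the median GC content was 46.6%, 47.0% and 46.6%. After each library was corrected for its trend with GC content and length, 56 genes were called higher and 44 lower, 14 lysosomal genes rose and 1 fell, 3 type IV collagens and 6 laminins and partners rose, and 13 genes of the 19S cap and 12 of the large ribosomal subunit fell. Without Control library 1 and Viperin library 3, those numbers were 118, 76, 13, 1, 2, 8, 12 and 9.

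Of 48 measured interferon-stimulated genes other than RSAD2, 1 rose, 3 fell and 44 did not pass, with a median of -0.02. Those are 2.08% higher and 6.25% lower, where 1.25% and 1.04% of all genes tested passed (2.85% and 2.36% at 10 CPM or more). IFIT2, which binds viral RNA, fell from 72.6, 70.9 and 77.7 to 54.7, 57.4 and 65.5 CPM (log2 fold change -0.32, SE 0.05, adjusted p = 2.5e-04, edgeR). IFIT3, its neighbour on chromosome 10, fell from 122, 120 and 134 to 99, 106 and 110 CPM (log2 fold change -0.26, SE 0.06, adjusted p = 0.0136, edgeR), and OASL, a sensor-like protein related to the oligoadenylate synthetases, from 26.7, 21.4 and 26.6 to 16.4, 19.9 and 18.9 CPM (log2 fold change -0.44, SE 0.10, adjusted p = 0.0361, edgeR). STAT2, a transcription factor of the interferon receptor, rose from 65.9, 62.5 and 62.9 to 79.3, 70.9 and 71.5 CPM (log2 fold change 0.22, SE 0.04, adjusted p = 0.00198, edgeR). The groups did not overlap for 9 of the 48, these 4 among them. Among all genes tested, 15.8% did not overlap (22.2% of those at 10 CPM or more). OASL missed 0.05 without 6 of the 12 libraries (adjusted p up to 0.181, edgeR), IFIT3 without Control library 3, Viperin library 1 or Viperin library 2 (up to 0.0789, edgeR) and STAT2 without Viperin library 1 (adjusted p = 0.0709, edgeR). The number that fell was 5 without Control library 2 and 1 without Control library 3.

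The 250 bases upstream of a RefSeq start of IFIT3 are shown as an example of an interferon-stimulated promoter among the genes that fell, with the core of the interferon-stimulated response element (TTTC, any 2 bases, TTTC) in capitals. The sequence is from RefSeq on GRCh38.p14, chr10:89327747-89327996, + strand, and lies inside the gene model used for the counts, which runs from 89327307 to 89377473.
IFIT3: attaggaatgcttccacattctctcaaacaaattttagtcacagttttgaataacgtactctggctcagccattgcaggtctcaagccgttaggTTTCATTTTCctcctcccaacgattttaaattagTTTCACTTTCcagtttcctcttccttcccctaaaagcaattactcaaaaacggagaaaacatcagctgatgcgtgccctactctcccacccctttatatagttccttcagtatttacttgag

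It held 2 matches. These letters were found on either strand upstream of 22 of the 39 interferon-stimulated genes with a sequence (56.4%) and in 3.02% of all promoters. None of 34 measured genes for NF-kB signalling, cytokines and chemokines passed 0.05 (edgeR), where 2.29% of all genes did so in either direction (5.22% of those at 10 CPM or more), while 2 passed an unadjusted p of 0.05 and none was called by DESeq2 or limma-voom.

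Genes for proteins that bind or work with Viperin moved little. Of 18 measured, 1 passed 0.05, IRAK1, a kinase of Toll-like receptor signalling, which fell from 253, 262 and 270 to 234, 224 and 242 CPM (log2 fold change -0.16, SE 0.04, adjusted p = 0.00541, edgeR). It missed 0.05 without Viperin library 2 (adjusted p = 0.0892, edgeR), and 2 partners fell without Control library 1. The other 17 had log2 fold changes no larger than 0.08 in size. Of 28 genes for CTP and other pyrimidine nucleotides, the substrate side of the enzyme, 1 passed, NME1, a nucleoside diphosphate kinase, which fell from 26.7, 24.6 and 23.7 to 20.7, 19.7 and 18.2 CPM (log2 fold change -0.35, SE 0.07, adjusted p = 0.00102, edgeR). NME1 kept an adjusted p under 0.05 without any 1 library. No member passed 0.05 among 27 genes of iron-sulfur cluster assembly, 29 of lipid droplets and fatty acid oxidation or 41 of the cell cycle (edgeR), with medians of -0.01, -0.00 and -0.02. At an unadjusted p under 0.05, 3, 2 and 13 members of these 3 lists passed (edgeR). DESeq2 with independent filtering called 1 lipid droplet gene, and limma-voom none.

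Counts assigned to HBB, which encodes beta-globin, were low in every library and lower with the Viperin plasmid. The source of these reads was not tested. HBB had 59, 50 and 26 counts in Control and 1, 2 and 3 counts in Viperin libraries (log2 fold change -3.79, SE 0.44, adjusted p = 1.0e-05, edgeR). The ratio of Control to Viperin was 25.6, with an exact 95% interval of 11.5 to 71.1 that covers counting error only. The neighbouring HBD had 4, 9 and 9 counts in Control and 1, 0 and 0 in Viperin libraries, a ratio of 25.1 (exact 95% counting interval 4.05 to 1034.8), and missed 0.05 without Viperin library 2 (adjusted p = 0.0522, edgeR). HBQ1 had 20 counts in all Control and 19 in all Viperin libraries, and HBA2 had 2 and 9. The T cell gene CD3E had no count in the 6 libraries, and of 10 measured blood and endothelial markers HBB fell and the endothelial receptor KDR rose, from 4.48, 4.12 and 3.71 to 6.54, 4.99 and 5.63 CPM (log2 fold change 0.49, SE 0.13, adjusted p = 0.0219, edgeR). KDR missed 0.05 without Control library 2, Control library 3 or Viperin library 1 (adjusted p up to 0.217, edgeR). DESeq2 with independent filtering gave HBB no adjusted p, and without that filter it called HBB. In the insulin arm HBB had 122, 88 and 62 counts with empty vector and 2, 4 and 9 with the Viperin plasmid.

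The same plasmids were compared in the 6 libraries with insulin, which share no sample with the 6 above, although all 12 enter 1 fit and so share its estimate of the spread. Viperin + Insulin against Insulin gave 67 of the 70 genes the same sign, 49 of them with an adjusted p under 0.05 and 24 under 0.001 (edgeR), where 3.08% (2.09% higher and 0.990% lower) and 0.473% of all genes tested passed. Of the 9389 genes at 10 CPM or more, 70.6% had the same sign in both comparisons. The 24 are 34.3% of the 70 and 22.0% of the 109 genes called with insulin. Of the 43 that rose, 36 had the same sign and an adjusted p under 0.05, and of the 27 that fell, 13 did. GPNMB and COL4A5 had log2 fold changes of 0.41 and 0.29 with insulin, PSAP and FBN1 of 0.27 and 0.24, and IFIT2 of -0.39. Of the 15 lysosomal genes, all 15 had a positive value, and 12 of the 60 in that list rose with insulin.

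The change was smaller in size with insulin for 61 of the 70 genes, with a median ratio of 0.72. The 70 were chosen for their values with vehicle, so a smaller value in other libraries is no result about insulin. The difference itself was tested as an interaction, and no gene passed 0.05 by edgeR, DESeq2 or limma-voom, with 1297 genes (5.63%) at an unadjusted p under 0.05 by edgeR. MRPS6, a protein of the mitochondrial ribosome, came nearest of the 70. It fell from 102, 108 and 94 to 85.1, 85.1 and 85.5 CPM with vehicle (log2 fold change -0.25) and had a log2 fold change of 0.04 with insulin, a difference with an adjusted p of 0.0532 (edgeR). ALDH1A3, an enzyme of retinoic acid synthesis, and COL14A1 also had the other sign with insulin, at -0.01 and -0.03. MAP1B and MMP2 had log2 fold changes of -0.06 and 0.04 with insulin, with an adjusted p of 0.199 and 0.303 for the difference (edgeR). The number of genes that passed the interaction was 24 without Insulin library 1, and 4 to 15 without Control library 1, 2 or 3, Viperin library 1 or 3 or Viperin + Insulin library 2.

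**Figure D5:**
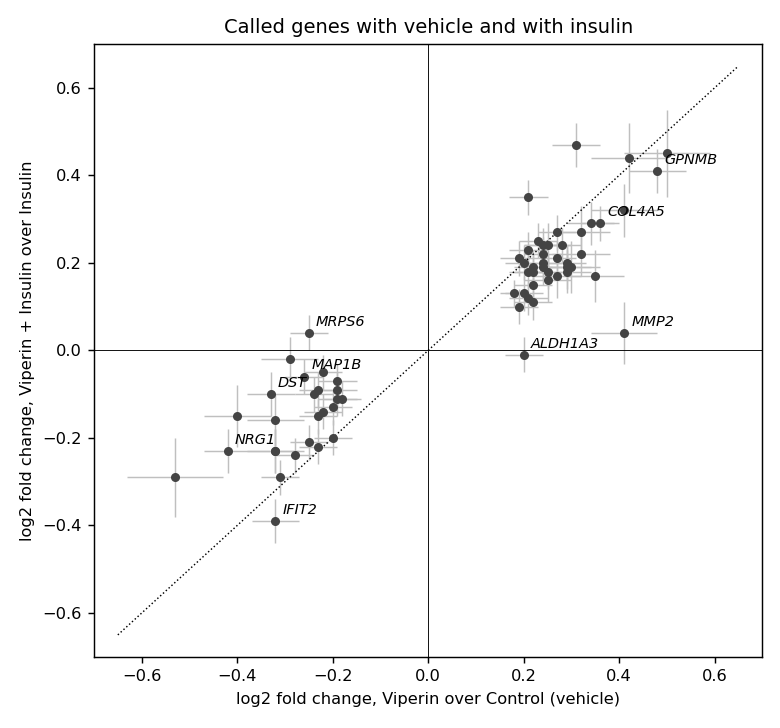
Log2 fold changes of 67 of the 70 called genes with vehicle (horizontal) and with insulin (vertical), with standard errors, where the dotted line marks equal values. RSAD2, HBB and COL14A1 are left out for scale. The genes were chosen by the horizontal values, and most points lie nearer to 0 on the vertical axis, as for MRPS6 at -0.25 and 0.04.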

How the data were processed

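RNA from 12Z cells was sequenced as stranded poly(A) libraries with 50-base paired ends. Cutadapt and Trim Galore were used by the authors for trimming and STAR for alignment to hg38, and the deposited files hold unnormalized counts of read pairs for each gene. No source used here gives tool versions. The annotation release named in the methods is a mouse one. Counts on the reverse strand were used (94.1% to 94.3% of strand-assigned pairs per library), and the 4 rows of unassigned reads were dropped, among them multimapping reads, at 9.44% to 13.9% of all read pairs. Assigned totals were 25979022 to 46889002 read pairs over the 12 libraries, and no pair of libraries was identical. Gene names came from GENCODE release 44 on GRCh38 and matched 60357 of 60617 identifiers.

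Genes averaging 1 count or more over the 12 libraries were kept (23041). The 12 libraries were fitted as 4 groups with edgeR 4.0.16 (R 4.3.3, TMM factors, robust quasi-likelihood, prior count 2) and p-values were adjusted by Benjamini-Hochberg over all 23041. The fit was tested on simulated data. Alternatives used DESeq2 1.42.0, limma 3.58.1, other filters, scalings and strands, fits with 1 library left out, a fit without Control library 1 and Viperin library 3, and a correction of each library for GC content and length. Tables and figures were made with Python 3.11.15, pandas 2.3.3, scipy 1.17.1 and matplotlib 3.10.9.

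The libraries compared and the 48 gene lists were chosen with earlier results of these data known. Values of each library were given for the 12 higher and 12 lower genes with the smallest p whose libraries did not overlap. Up to 4 members per list with the smallest p were named. Other members that passed in a list were named after their values were seen. Values of a few list members are not reported here. Intervals cover counting error only.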

Additional observations from a re-analysis of the deposited data

Results flagged for a closer look

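Counts on the strand opposite to the genes, which the main comparison does not use, were flagged as a signal outside the main measurement. RSAD2 had 0, 0 and 0 opposite-strand counts in Control and 44, 45 and 14 in Viperin libraries, so its highest value was 45 where the controls had none. Of 16076 genes tested on that strand, 15 were called at an adjusted p under 0.001 (edgeR, 0.0933%), 7 higher and 8 lower. Among them TMSB10 and GAPDH had log2 fold changes of -0.76 and -0.68, and THBS2-AS1 and ALDH1A3-AS1, each antisense to another gene, of 0.33 and 0.26. Their causes were not tested. No group held enough libraries for a test of single outlying values.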

How the results depend on the processing

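Of 6471 values of 260 named genes under 25 alternatives, 5232 kept direction and side of the threshold, 1122 fell short of it, 106 newly passed it and 11 reversed, none of a called gene. The reversed genes were CMPK2, COL4A3 and HBQ1, at low counts. CMPK2 was 0.05 by limma-voom, from -0.25 to 0.32 with 1 library left out (0.32 without Control library 1, 0.03 without Viperin library 2) and 0.28 in the fit that left out Control library 1 and Viperin library 3 (both libraries). COL4A3 was -0.04 on unstranded counts, from -0.18 (without Viperin library 3) to 0.26 with 1 library left out, with -0.09 without Control library 2, and -0.07 without both libraries. HBQ1 was 0.63 by limma-voom, from -0.80 to 0.25 (without Control library 2) with 1 library left out, and 0.18 without both.

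Genes called higher and lower (43 and 27) were 65 and 57 by DESeq2 with independent filtering, 28 and 16 by limma-voom, 96 and 78 with no filter on low counts, 10 and 5 with filterByExpr, 11 and 9 from Control and Viperin libraries alone, 118 and 76 without both libraries, 111 and 88 at 0.01 and 288 and 240 at 0.05, and those lower were 44 with the GC and length trend removed. RSAD2 missed 0.001 by limma-voom at 7.56 and from Control and Viperin libraries alone at 7.53. From those 6 libraries alone, 9 lysosomal genes and 2 laminins rose, and 4 of the 19S cap, 4 of the large ribosomal subunit, 2 chaperones and 5 interferon-stimulated genes fell. Matrix glycoproteins that rose were 15 with no filter, 19 without both libraries and 14 without the robust option, laminins 8 without both. Large ribosomal genes that fell were 19 by DESeq2 with independent filtering. Interferon-stimulated genes that fell (3) were 5 and 6 by DESeq2 without and with independent filtering, 6 with no filter and 5 without the robust option. Interaction genes (0) were 37 with no filter, 7 on unstranded counts, 34 without both libraries, 12 with the trend removed and 2 without the robust option. Opposite-strand calls (15) were 4 by DESeq2 either way and 8 with filterByExpr. The causes were not tested.

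With 1 library left out, calls ranged from 9 to 146 higher and 7 to 107 lower, RSAD2 from 7.37 to 7.74, lysosomal genes from 8 to 15, type IV collagens from 2 to 4, laminins from 1 to 10, matrix glycoproteins from 5 to 19, the 19S cap from 4 to 14, the large ribosomal subunit from 5 to 17, chaperones from 3 to 7, interferon-stimulated genes from 1 to 5, genes of the same sign with insulin from 65 to 69, those also under 0.05 from 34 to 52, interaction genes from 0 to 24 and opposite-strand calls from 5 to 31.

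Replicate numbers were not used to pair the libraries in the main fit. Deviations of same-numbered Control and Viperin libraries correlated at 0.0198, 0.0257 and -0.0226. Counting error adds to these deviations, so a pairing is not excluded. A replicate block gave 44 higher and 34 lower, 5 interferon-stimulated genes that fell and 17 interaction genes.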

Other observations

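Other gene groups moved in both directions. Of 33 measured WNT signalling genes, 5 rose (15.2%) and 1 fell (3.03%), where 1.25% and 1.04% of all genes tested did. Those shares were 2.85% and 2.36% among genes at 10 CPM or more. Leaving out Control library 2 or 3 or Viperin library 1 or 2 gave 2 that rose, and Viperin library 3 gave 3, while none fell without Viperin library 2 or by limma-voom. DKK3, a secreted WNT antagonist family member, rose with a log2 fold change of 0.21, and the WNT receptors FZD4 and FZD7 with 0.24 and 0.26, while SFRP1, which binds WNT ligands, fell with -0.16. Of 41 genes of insulin, IGF and PI3K signalling, 4 rose (9.76%) and 1 fell (2.44%), beside the same shares of all genes. IGF1R, the receptor for insulin-like growth factors, measured 106, 97.4 and 95.7 CPM in Control and 119, 111 and 112 CPM in Viperin libraries, which did not overlap (log2 fold change 0.19, SE 0.04, adjusted p = 0.00269, edgeR). Among all genes tested, 15.8% did not overlap (22.2% of those at 10 CPM or more). The number that rose was 1 without Control library 2 or 3, Insulin library 3 or Viperin library 3, and 2 without Viperin library 1.

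In cholesterol and fatty acid synthesis, 2 of 35 genes rose and 2 fell (5.71% each), where 1.25% and 1.04% of all genes tested did. At 10 CPM or more the shares of all genes were 2.85% and 2.36%. STARD4, a carrier of cholesterol, rose with a log2 fold change of 0.14, and the sterol enzymes MVD and NSDHL fell with -0.18 and -0.14. STARD4 missed 0.05 without 5 of the 12 libraries (adjusted p up to 0.25, edgeR). No gene of that list fell without Control library 2 or 3 or Viperin library 1 or 2. The splicing regulators RBM39 and SRSF6 rose with log2 fold changes of 0.20 and 0.27, the only 2 of 32 (6.25%) to pass by edgeR. Among all genes tested, 1.25% rose (2.85% of those at 10 CPM or more). The splicing list had a median of -0.02, with 3 higher and 5 lower at an unadjusted p under 0.05 (edgeR). DESeq2 and limma-voom each called 2 higher and 1 lower.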
